A study of Arabidopsis thaliana with 6 samples.

Results

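UGT genes encode the UDP-dependent glycosyltransferases of plants, enzymes that move a sugar from a UDP-sugar onto a small molecule. The locus set described here holds every array locus whose annotated symbols include UGT followed by a number, which gave 56 of 32627 loci. Loci were chosen by symbol alone, but the family was selected on its measured differences between OBP4 and control arrays, the same contrast as below. The counts of changed members are therefore a description, and nothing about the family as a whole is read from them.

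A sugar makes hormones, phenolic compounds and toxins more soluble, changes their activity and directs many of them to the vacuole. Arabidopsis UGTs include enzymes for salicylate, auxin, cytokinin and abscisic acid, for the alcohols and acids of the lignin pathway, for flavonols and for glucosinolates. Numbers in a name give the family, the letter the subfamily and the last number the gene, so that UGT74F1 and UGT74F2 are close relatives.

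RNA came from roots of 2 Arabidopsis lines, pER8::OBP4 with 3 arrays and pER8::GFP, the control, with 3 arrays. In pER8 lines a transgene is switched on by estradiol through an activator driven by a constitutive promoter, so no single cell type is targeted. Seedlings of both lines were 5 days old when moved to 10 µM estradiol for 8 h, and the replicates came from separate culture plates. OBP4 is a DOF transcription factor, and the study's title names root growth, cell elongation and callus formation. How many independent insertion lines were used is not stated in the sources used here, and arrays without estradiol were not analysed here. What separates the lines before estradiol and what OBP4 induction adds cannot be told apart.

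Values are log2 array signals, and differences are OBP4 minus control on that scale. OBP4 itself stood at 15.74, 15.83 and 15.86 in OBP4 roots and at 14.37, 14.78 and 14.48 in control roots, so the arrays follow their labels. All 12 genes of a root marker list were measured, with mean signals of 9.71 to 15.90. Of them, 4 (WER, RHD6, COBL9 and EXPA7) were lower in OBP4 roots, beside 8.48% of all loci lower. The other 8 genes, among them SHR, SCR, PLT1, PLT2, WOX5 and CASP1, did not pass. A list of 21 photosynthesis genes, markers of shoot tissue, had medians of 15.35, 11.38 and 13.78 in OBP4 replicates 1 to 3 and 12.50, 11.98 and 13.32 in control replicates 1 to 3. None of the 21 passed the test, but their median difference was 0.85 and their spread was wide, as in RBCS2B (SD of 4.90 in OBP4 roots). The misses therefore do not show equal shoot tissue in the groups. With the mean of this list as a covariate 15 of the 18 UGT calls below also passed, and those of UGT71C3, UGT76C1 and UGT76E2 did not. Whether shoot tissue contributed to any difference was not tested. In RNA from whole roots, fewer cells of a type and less RNA per cell cannot be told apart.

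Among the 56 UGT loci, 14 fell and 4 rose in OBP4 roots and 38 did not pass, by limma's test at an adjusted p of 0.05. That is 25% of members lower and 7.14% higher, where the same test called 8.48% of all loci lower and 5.23% higher. By at least 1 on the log2 scale 7 members fell and 2 rose, against 3.06% and 1.72% of all loci. The median difference was -0.14 over the members and 0.02 over all loci. The groups of arrays did not overlap at 30 members, or 53.6%, against 36.9% of all loci. The number of risers was 2 without control replicate 1 or control replicate 2, and the number of fallers was 9 without control replicate 3.

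**Figure D1:**
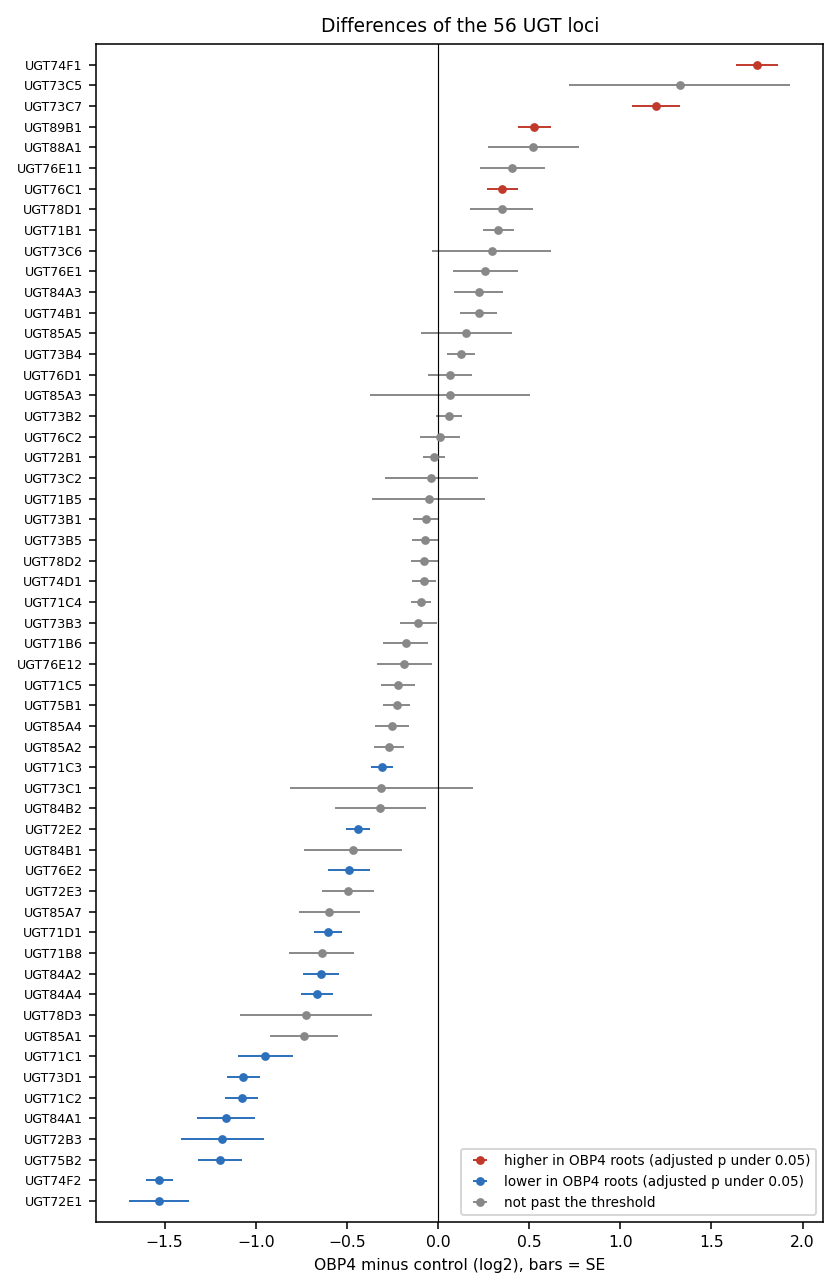
Difference between OBP4 and control roots (log2, horizontal axis) for each of the 56 UGT loci, ordered by difference, with limma's standard error as a bar. Red points are the 4 risers, blue points the 14 fallers and grey points the 38 loci that did not pass. UGT74F1 (1.75) lies at the top, UGT72E1 and UGT74F2 (-1.53 each) at the bottom, and UGT73C5 has the widest bar.

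The salicylate glucosyltransferase genes UGT74F1 and UGT74F2 changed in opposite directions. UGT74F1, whose enzyme forms salicylate 2-O-glucoside, had signals of 13.85, 14.13 and 14.16 in OBP4 roots, against 12.42, 12.20 and 12.28 in control roots. Every OBP4 array lay above every control array. The rise was 1.75 ± 0.12 (SE), or 3.36-fold, with limma's adjusted p = 0.000938. UGT74F2, whose enzyme mainly forms the glucose ester of salicylate, had signals of 13.16, 13.14 and 13.12 in OBP4 roots, against 14.56, 14.70 and 14.74 in control roots. The OBP4 arrays were closely grouped and all below the control arrays. The fall was -1.53 ± 0.07 (SE), or 2.89-fold lower, with limma's adjusted p = 0.00053. The pair lies on the forward strand of chromosome 2, UGT74F2 (AT2G43820) at 18152227 to 18153908 and UGT74F1 (AT2G43840) at 18157638 to 18159231, in the coordinates of the array annotation.

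Other enzymes of salicylate and related acids moved less. UGT71C3, which acts on methyl salicylate, fell by 0.31 (limma's adjusted p = 0.0293). Its signals spanned 13.40 to 13.49 in OBP4 roots and 13.72 to 13.75 in control roots, so a small difference stood beyond a small spread. It passed in 1 of the 6 fits that leave out an array, the fit without OBP4 replicate 1. UGT76D1, linked to dihydroxybenzoic acids, averaged 12.40 ± 0.17 in OBP4 roots and 12.33 ± 0.14 in control roots (SD, n = 3 each) and did not pass. UGT89B1, which is not listed for salicylate and is annotated on the array as a quercetin glucosyltransferase, rose by 0.53 ± 0.09 (SE; limma's adjusted p = 0.0189). The call of UGT89B1 was lost without control replicate 1, control replicate 2 or OBP4 replicate 2.

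Of the 8 members listed for phenylpropanoids and monolignols, 5 fell, 3 did not pass and 0 rose, beside 8.48% of all loci lower. UGT72E1, which acts on coniferyl and sinapyl aldehydes in vitro, had signals of 14.12, 13.63 and 14.17 in OBP4 roots, against 15.42, 15.48 and 15.60 in control roots. OBP4 replicate 2 was the lowest, and the groups did not overlap. The fall was -1.53 ± 0.16 (SE), or 2.89-fold lower, with limma's adjusted p = 0.00403. The highest signal of any locus on the arrays was 15.93, and whether signals near it are compressed was not tested.

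The relatives of UGT72E1 make the glucosides of coniferyl and sinapyl alcohol. UGT72E2 stood at 15.25, 15.17 and 15.12 in OBP4 roots, against 15.60, 15.61 and 15.64 in control roots, and fell by 0.44 (limma's adjusted p = 0.0116). The call was lost without control replicate 3. UGT72E3 averaged 14.29 ± 0.23 in OBP4 roots and 14.78 ± 0.13 in control roots (SD, n = 3 each). Its groups did not overlap, but its difference of -0.49 ± 0.14 (SE) did not pass (limma's adjusted p = 0.0855). Among the 6 fits that leave out an array it passed in that without OBP4 replicate 3. UGT72B1, which conjugates chlorinated anilines and phenols as well as monolignols, averaged 15.49 ± 0.05 in OBP4 roots and 15.51 ± 0.02 in control roots (SD, n = 3 each).

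The UGT84A enzymes form glucose esters of sinapate and other hydroxycinnamates. UGT84A1 had signals of 13.02, 13.48 and 13.21 in OBP4 roots, against 14.30, 14.27 and 14.63 in control roots. All OBP4 arrays were lower, and the fall was -1.16 ± 0.16 (SE), or 2.24-fold lower (limma's adjusted p = 0.00902). UGT84A4 fell by 0.66 (limma's adjusted p = 0.00753), with signals of 13.14 to 13.34 in OBP4 roots and 13.86 to 14.02 in control roots. UGT84A2, a sinapate glucosyltransferase gene, fell by 0.64 (limma's adjusted p = 0.0126). It averaged 14.27 ± 0.14 in OBP4 roots and 14.91 ± 0.08 in control roots (SD, n = 3 each), and its call was lost without control replicate 3 or OBP4 replicate 3. UGT84A3 did not pass, at 11.68 ± 0.23 in OBP4 roots and 11.46 ± 0.10 in control roots (SD, n = 3 each).

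**Figure D2:**
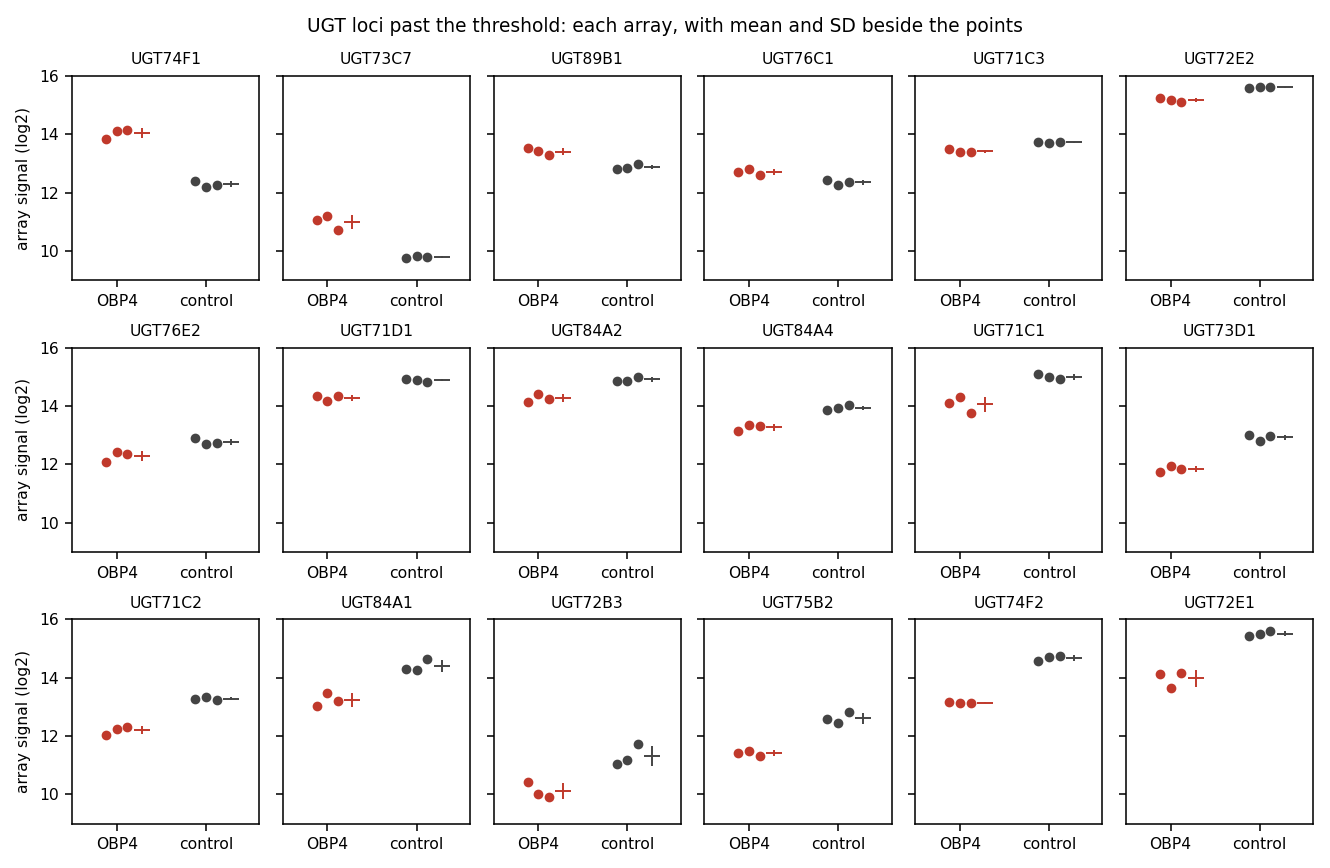
Array signal (log2, vertical axis, from 9 to 16) of the 18 UGT loci that passed the test, with 1 point per array in OBP4 roots (red, left) and control roots (dark grey, right) and the mean with its SD beside the points. Panels run from the largest rise (UGT74F1) to the largest fall (UGT72E1). In each panel the OBP4 points lie wholly above or wholly below the control points.

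A run of UGT71 members on chromosome 2 fell as a block. UGT71D1 (12703537 to 12705181), UGT71C2 (12706710 to 12708367) and UGT71C1 (12709727 to 12711696) follow each other on the forward strand with no other array locus between them. The array annotates all of them as quercetin glucosyltransferases. UGT71C2 had signals of 12.05, 12.25 and 12.31 in OBP4 roots, against 13.28, 13.33 and 13.22 in control roots. The groups lay apart by far more than their spread, with a fall of -1.08 ± 0.09 (SE; limma's adjusted p = 0.0019). UGT71C1 had signals of 13.76 to 14.30 in OBP4 roots, against 14.91 to 15.10 in control roots. It fell by 0.95 (limma's adjusted p = 0.0148), and the call was lost without control replicate 1 or control replicate 2. UGT71D1 fell by 0.60 (limma's adjusted p = 0.0071), with signals of 14.17 to 14.36 in OBP4 roots and 14.84 to 14.91 in control roots. AT2G29710, at 12698673 to 12700343 on the same strand, carries the array's family phrase for UDP-glucosyl transferases but no UGT number. Its difference of -0.35 ± 0.09 (SE) did not pass (limma's adjusted p = 0.07005).

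UGT71 genes elsewhere mostly stayed short of the threshold. Of the 10 members of this family, 4 fell and 0 rose, where 8.48% of all loci fell and 5.23% rose. Among the fallers, 3 are the chromosome 2 run, and the other is UGT71C3. UGT71C4 and UGT71C5, which neighbour UGT71C3 on chromosome 1, averaged 14.23 ± 0.02 and 14.68 ± 0.15 in OBP4 roots and 14.32 ± 0.01 and 14.89 ± 0.04 in control roots (SD, n = 3 each). UGT71B1 averaged 13.43 ± 0.11 in OBP4 roots and 13.10 ± 0.07 in control roots (SD, n = 3 each), a difference of 0.33 ± 0.08 (SE) that did not pass (limma's adjusted p = 0.0587).

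Of the UGT73 family 11 loci are members of the set, of which 1 rose and 1 fell, where 5.23% of all loci rose and 8.48% fell. The riser and the faller are direct neighbours. UGT73D1 (AT3G53150) and UGT73C7 (AT3G53160) lie on the reverse strand of chromosome 3, at 19697736 to 19699259 and at 19702456 to 19703976, with 3197 bases and no other array locus between them. UGT73C7 had signals of 11.07, 11.19 and 10.73 in OBP4 roots, against 9.75, 9.84 and 9.81 in control roots. Its OBP4 arrays were all higher, by 1.19 ± 0.13 (SE), or 2.29-fold (limma's adjusted p = 0.00439). UGT73D1 had signals of 11.75, 11.96 and 11.85 in OBP4 roots, against 13.00, 12.81 and 12.96 in control roots. Its OBP4 arrays were all lower, by -1.07 ± 0.09 (SE; limma's adjusted p = 0.0019). Both calls also passed in all 6 fits that leave out an array.

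UGT73C5, whose enzyme inactivates brassinosteroids and the fungal toxin deoxynivalenol, showed a large but unsteady difference. Its signals were 10.46, 9.33 and 9.23 in OBP4 roots, against 7.72, 7.81 and 9.52 in control roots. Control replicate 3 lay above the lower 2 OBP4 arrays, so the groups overlapped. The difference of 1.33 ± 0.61 (SE) did not pass (limma's adjusted p = 0.225), and the fits without 1 array gave differences of 0.93 to 1.91. OBP4 replicate 1, the highest for UGT73C5, also had the highest photosynthesis median of its group, and control replicate 3 the highest of the controls. The other arrays did not follow that order. OBP4 replicates 2 and 3 had photosynthesis medians of 11.38 and 13.78, with UGT73C5 at 9.33 and 9.23. Control replicates 1 and 2 had medians of 12.50 and 11.98, with UGT73C5 at 7.72 and 7.81. With the photosynthesis list's mean fitted as a covariate, the difference was 0.96 ± 0.53 (SE; limma's adjusted p = 0.318). Whether shoot tissue contributed to it was not tested. UGT73C6, the other gene listed for brassinosteroids, was dim, at 5.84 ± 0.63 in OBP4 roots and 5.54 ± 0.17 in control roots (SD, n = 3 each). AT2G36770 and AT2G36780, with the family phrase but no UGT number, lie between UGT73C2 and UGT73C6 on chromosome 2. AT2G36780 rose, with a difference of 1.63 ± 0.16 (SE; limma's adjusted p = 0.00325). AT2G36770 did not pass, with a difference of 0.71 ± 0.26 (SE; limma's adjusted p = 0.151).

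The UGT73B genes, linked to flavonol glucosylation and to responses to pathogens and oxidative stress, were bright and did not pass. All 5 had differences between -0.11 and 0.12. Their group means lay between 14.87 and 15.50 in OBP4 roots and between 14.97 and 15.39 in control roots.

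Of the 10 members listed for cytokinin, abscisic acid, auxin or brassinosteroid, 1 rose and 0 fell, where 13.7% of all loci were called. UGT76C1, a cytokinin N-glucosyltransferase gene, had signals of 12.73, 12.80 and 12.60 in OBP4 roots, against 12.44, 12.28 and 12.36 in control roots. The groups were apart, and the rise of 0.35 ± 0.08 (SE) only just passed (limma's adjusted p = 0.0498) and passed in 0 of the 6 fits that leave out an array. Its neighbour UGT76C2, which encodes the other cytokinin N-glucosyltransferase, averaged 13.34 ± 0.04 in OBP4 roots and 13.33 ± 0.18 in control roots (SD, n = 3 each). UGT85A1, an O-glucosyltransferase gene for zeatin, had signals of 13.19, 13.00 and 12.51 in OBP4 roots, against 13.59, 13.59 and 13.72 in control roots. All OBP4 arrays were lower, but the difference of -0.74 ± 0.19 (SE) did not pass (limma's adjusted p = 0.0605). Among the 6 fits that leave out an array it passed in that without OBP4 replicate 1.

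The 7 members listed for abscisic acid, auxin or brassinosteroid did not pass, where 13.7% of all loci were called. The auxin list names 4 genes and the abscisic acid list 4, of which 2 and 3 are in the set. UGT74E2, linked to indole-3-butyric acid, has no UGT number on the array and lay outside the set. It fell by 0.68 (limma's adjusted p = 0.0362). UGT75B2, which is not on these lists but is annotated on the array as an abscisic acid glucosyltransferase, fell and is described below. For abscisic acid, UGT71C5 is given above. UGT71B6 averaged 9.13 ± 0.19 in OBP4 roots and 9.31 ± 0.12 in control roots, and UGT71B8 7.19 ± 0.26 in OBP4 roots and 7.83 ± 0.23 in control roots (SD, n = 3 each). For auxin, UGT74D1 was bright at 15.40 ± 0.05 in OBP4 roots and 15.47 ± 0.06 in control roots (SD, n = 3 each). UGT84B1, which forms the glucose ester of indole-3-acetic acid, was dim at 8.10 ± 0.50 in OBP4 roots and 8.56 ± 0.18 in control roots (SD, n = 3 each).

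The 3 UGT78D members, listed for flavonoids, and the glucosinolate gene UGT74B1 did not pass, where 13.7% of all loci were called. The flavonoid list names 9 genes, of which only these 3 are in the set. AT5G17040, with the family phrase but no UGT number, lies between UGT78D3 and UGT78D2 and fell. Its difference was -1.18 ± 0.16 (SE; limma's adjusted p = 0.00839). AT1G06000, on chromosome 1 with the same phrase and no UGT number, fell too. Its difference was -0.34 ± 0.07 (SE; limma's adjusted p = 0.029). UGT71D1, UGT71C2, UGT71C1, UGT72B3 and UGT89B1, annotated on the array as quercetin glucosyltransferases, are not on the flavonoid list. UGT89B1 rose and the others fell. UGT78D1, a flavonol rhamnosyltransferase gene, averaged 11.59 ± 0.21 in OBP4 roots and 11.24 ± 0.26 in control roots (SD, n = 3 each). UGT78D2, a flavonol and anthocyanidin glucosyltransferase gene, averaged 15.39 ± 0.07 in OBP4 roots and 15.47 ± 0.07 in control roots (SD, n = 3 each). UGT78D3, a flavonol arabinosyltransferase gene, was dimmer and more spread, at 7.63 ± 0.45 in OBP4 roots and 8.35 ± 0.56 in control roots (SD, n = 3 each). UGT74B1, which completes the glucosinolate core, averaged 14.54 ± 0.17 in OBP4 roots and 14.32 ± 0.02 in control roots (SD, n = 3 each).

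The remaining fallers belong to families UGT75, UGT72 and UGT76. UGT75B2, annotated on the array as an abscisic acid glucosyltransferase, had signals of 11.43, 11.50 and 11.30 in OBP4 roots, against 12.57, 12.44 and 12.82 in control roots. The groups were well apart, with a fall of -1.20 ± 0.12 (SE), or 2.29-fold lower (limma's adjusted p = 0.00314). Its relative UGT75B1, which encodes a protein known from the cell plate of dividing cells, averaged 14.38 ± 0.08 in OBP4 roots and 14.60 ± 0.07 in control roots and did not pass (SD, n = 3 each). UGT72B3, annotated on the array as a quercetin glucosyltransferase, had signals of 10.44, 10.02 and 9.92 in OBP4 roots, against 11.05, 11.17 and 11.71 in control roots. It fell by 1.18 (limma's adjusted p = 0.0266), but among the fits that leave out an array it passed only in that without OBP4 replicate 1. UGT76E2 fell by 0.49 (limma's adjusted p = 0.0482), with signals of 12.09 to 12.42 in OBP4 roots and 12.69 to 12.89 in control roots, and passed in 0 of those 6 fits.

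Many members lie side by side with close relatives. Members on the same chromosome within 20 kb of each other formed 16 groups with 42 of the 56 loci. A call was made in 8 of these groups. In the UGT71D1, UGT71C2 and UGT71C1 group every member passed in the same direction. In 2 groups, UGT74F2 with UGT74F1 and UGT73D1 with UGT73C7, the neighbours passed in opposite directions. In the other 5, at least 1 member passed and at least 1 did not, as in the chromosome 4 row of UGT84A1, UGT84A3 and UGT84A4. A pass beside a miss does not by itself show that neighbours differ, and those differences were not tested. The 5 UGT85A genes in a row on chromosome 1 and the UGT73B1, UGT73B2 and UGT73B3 row on chromosome 4 held no call. Loci with the family phrase but no UGT number lie in or near some groups and were not counted in them. Of these, AT2G36780 in the UGT73C row and AT3G46680 and AT3G46690 near UGT76E11 rose. AT5G17040 in the UGT78D row and AT3G46720 near UGT76E11 fell. Others, such as AT2G36770 and AT2G29710, did not pass. Probe sequences were not used here, so hybridisation of a transcript to probes of a close relative was not tested.

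**Figure D3:**
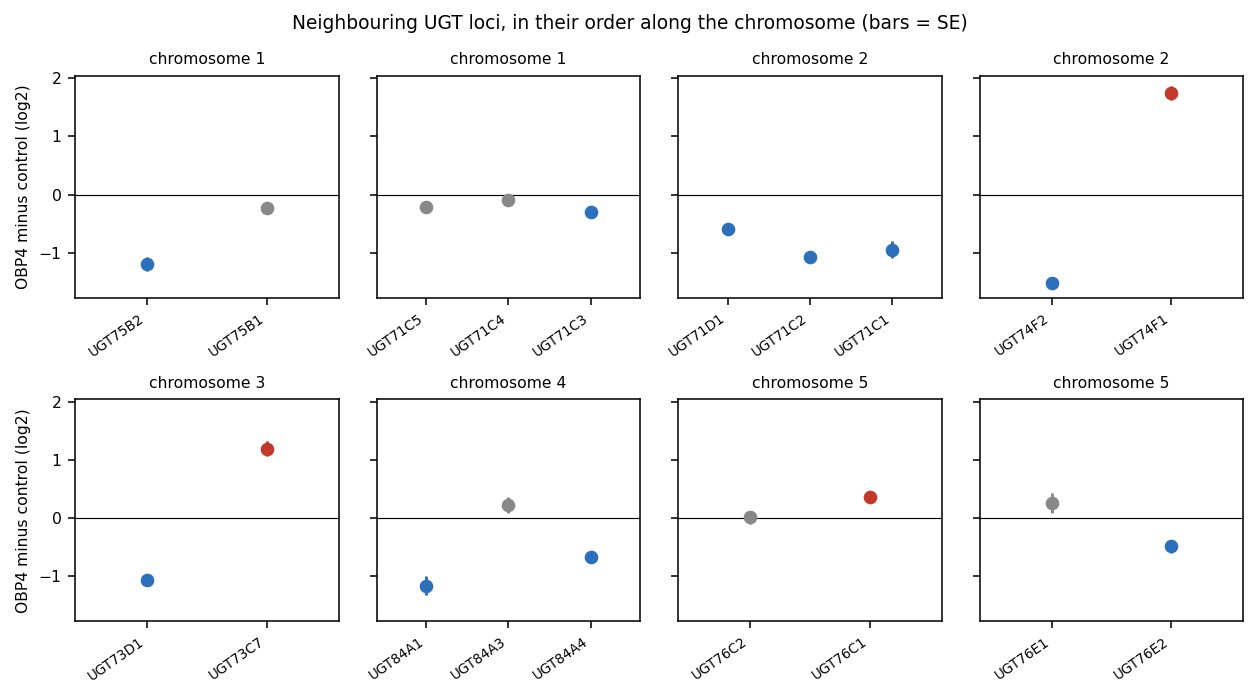
Differences between OBP4 and control roots (log2, vertical axis, bars give the SE) in the 8 groups of neighbouring UGT loci with at least 1 call, in their order along the chromosome (horizontal axis, not to scale). Red marks risers, blue fallers and grey loci that did not pass. UGT74F2 and UGT74F1 (-1.53 and 1.75) and UGT73D1 and UGT73C7 (-1.07 and 1.19) lie on opposite sides of 0.

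The spread between arrays differed with signal strength. The 12 members with a mean signal under 9 had a median pooled SD of 0.37 and held no call, and 5.15% of all loci in that range were called. In the range of 9 to 12, 9 members had a median pooled SD of 0.235, 1 rose and 1 fell, and 22.5% of all loci were called. In the range of 12 to 14, 16 members had a median pooled SD of 0.11, 3 rose and 8 fell, and 22.1% of all loci in that range were called. The 19 members at 14 and over had a median pooled SD of 0.076 and held 5 fallers, where 11.7% of all loci were called. The highest control means in the set were those of UGT72E2 (15.62), UGT72B1 (15.51) and UGT72E1 (15.50). UGT85A5, UGT85A2, UGT73B2, UGT73B4 and UGT88A1 have more than 1 gene model on the array. The model rows of UGT88A1 gave differences of 0.89, 0.03 and 0.65, and those of UGT85A5 -0.11 and 0.42, so their averages hide unequal rows.

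**Figure D4:**
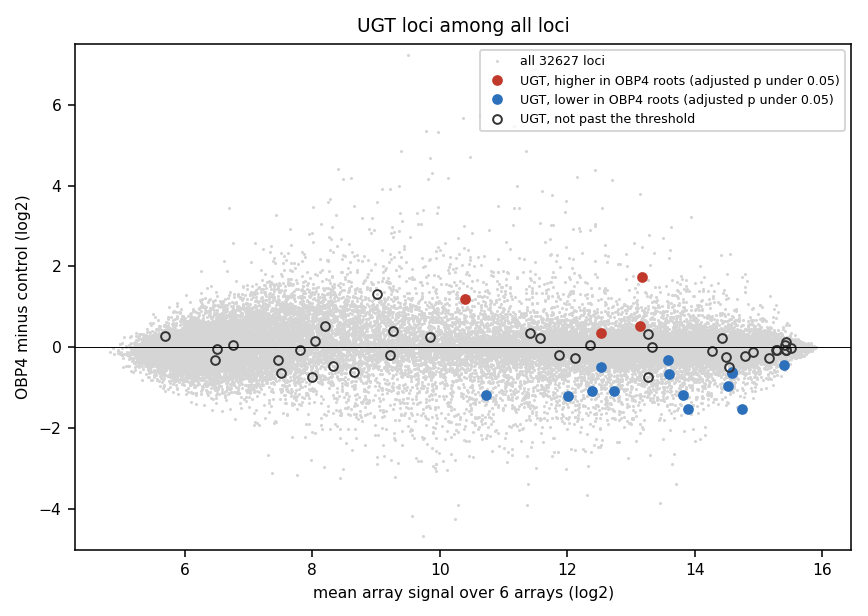
Difference between OBP4 and control roots (log2, vertical axis) against the mean signal over 6 arrays (log2, horizontal axis) for all 32627 loci (light grey) and the 56 UGT loci. Filled red points are the 4 risers, filled blue points the 14 fallers and open circles the 38 that did not pass. No filled point lies below a signal of 9, and the spread of all loci narrows towards 16.

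Beside the numbered UGT genes, 38 loci carry the array's family phrase for UDP-glucosyl transferases without a UGT number in their symbols. Among these 6 rose and 6 fell, where 5.23% of all loci rose and 8.48% fell, and the median difference was -0.02. The largest were a rise at AT2G36970, to 11.30 in OBP4 roots against 7.99 in control roots, and a fall at AT3G22250, to 9.31 in OBP4 roots against 11.62 in control roots. Their differences of 3.31 ± 0.10 and -2.32 ± 0.10 (SE) exceeded those of all numbered members (limma's adjusted p of 0.000386 and 0.00049). The current reference gives 3 of the 38 loci a UGT number. UGT87A2 rose by 0.94 (limma's adjusted p = 0.00143), and UGT74E2, linked to indole-3-butyric acid, fell by 0.68 (limma's adjusted p = 0.0362). UGT76B1 averaged 15.52 ± 0.10 in OBP4 roots and 15.58 ± 0.03 in control roots (SD, n = 3 each) and did not pass.

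Genes that act before and after a UGT were taken from lists of related functions. Of 23 measured genes for the supply of UDP-sugars, 2 rose and 3 fell, where 13.7% of all loci were called. UGE3, which interconverts UDP-glucose and UDP-galactose, rose by 1.41 ± 0.08 (SE), while its relatives UGE4 and UGE1 fell by 0.53 and 0.47. SUS3, a gene for sucrose synthase, which yields UDP-glucose, rose by 0.83, and SUS4 fell by 0.33. This count of 5 was 3 without control replicate 3, OBP4 replicate 2 or OBP4 replicate 3.

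Of 25 genes listed as detoxification partners, 6 rose and 1 fell, where 5.23% of all loci rose and 8.48% fell, and the median difference was 0.02. PMAT1, which adds malonate to phenolic glucosides made by UGTs, had signals of 14.77, 14.85 and 14.85 in OBP4 roots, against 12.43, 12.38 and 12.42 in control roots. That rise of 2.41 ± 0.06 (SE) had limma's adjusted p = 0.000386, and its relative PMAT2 rose by 1.06. AER, an alkenal reductase gene, rose by 1.40, and ABCC3, a transporter gene for conjugates, by 1.28. The cytochrome P450 gene CYP81D8 rose by 1.26 and the bZIP factor gene TGA6 by 0.51, while the sterol desaturase gene CYP710A1 fell by 0.63.

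Of 18 genes for hormone conjugation by other enzymes and for hormone inactivation, 1 rose and 3 fell, beside the same shares of 5.23% and 8.48% of all loci. AT5G13370, annotated as a GH3 family protein, rose by 1.32. GH3.2, which joins auxin to amino acids, fell by 0.99, AT5G51470 of the same family by 0.79 and AT1G14120, annotated as a dioxygenase, by 0.50. The count of 4 was 2 without control replicate 1 or OBP4 replicate 1 and 1 without any other single array.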

How the data were processed

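Per the labels' protocols, 10 µg of root RNA per sample was copied to cDNA, labelled with Cy3 and hybridised to one-colour NimbleGen arrays. The authors deposited 1 table per array with log2 values for 37118 gene models. The titles of these tables name RMA, with software and settings not given here. A second deposited table of log2 values has an unstated normalization and was used as an alternative only. The 6 array identifiers share 1 prefix, so no slide effect was separated. No 2 arrays were identical.

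Gene models were averaged per locus, which gave 32627 loci, 31993 of them in the TAIR10.1 reference table, including all 56 members. The sources used here give no build for the array's coordinates. Every locus was kept. The fit used limma 3.58.1 (lmFit, then eBayes) under R 4.3.3. Its two-sided p-values were adjusted by Benjamini and Hochberg's method across the 32627 loci, and 0.05 was the threshold. No p was computed for any list. The labels state no test.

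On simulated data for 32627 loci the fit recovered 4 of 67 loci changed by 0.5, 30 of 67 changed by 1 and 50 of 66 changed by 2 (log2), with 0 calls among unchanged loci, fewer changes than in the arrays. Arrays have no read depth, and precision is limited by having 3 per group.

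Members, lists and tests were chosen with earlier results of these data known. Named genes are the members past the threshold, those of the listed roles, the 3 highest control means, called members' neighbours within 20 kb and up to 3 called genes per related list, all called genes being named there since they are few. UGT71B1, UGT88A1, the other members with several gene models and the loci of the unnumbered family set were named after their values were seen. Sequences were not used here. Alternatives were quantile normalization, median centring, cyclic loess, the second table, leaving out the dimmest 25% or 50% of loci, trend and robust eBayes, a block for replicate number, array weights, the photosynthesis covariate, each locus's brightest row, adjusted p of 0.01, a minimum change of 1, a wider member set and leaving out each array. Figures used matplotlib 3.10.9.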

Additional observations from a re-analysis of the deposited data

Results flagged for a closer look

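A signal lay in the second deposited table, which names the same samples and was left out of the results above. Under its labels limma called 8 of the 56 UGT loci, all as higher in OBP4 roots, where 1034 of 32627 loci in that table were called higher. The largest was UGT84A1, at 11.88 ± 0.79 under the OBP4 labels and 7.06 ± 0.23 under the control labels (SD, n = 3 each), a difference of 4.82 with limma's adjusted p = 0.00355. UGT84A2 differed by 3.62 and UGT84A3 by 2.99, and the flavonol genes UGT78D1 and UGT78D2 by 2.76 and 2.27. In the arrays UGT84A1 and UGT84A2 fell, and UGT84A3, UGT78D1 and UGT78D2 did not pass. UGT73C7 differed by 1.05 in the table, UGT73C5 by 0.96 and UGT85A7 by 0.45, and of these UGT73C7 rose in the arrays too. OBP4 itself differed by 0.01 ± 0.09 (SE) in that table, with limma's adjusted p = 0.98. Column medians over loci were 11.59 to 11.61. The table's scale appears to be log2, and its centring and normalization are unknown. Why the table and the arrays differ was not tested.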

How the results depend on the processing

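The fit above gave 4 UGT loci higher, 14 lower and 1705 and 2767 of all loci higher and lower. In the same order, an adjusted p of 0.01 gave 2, 8, 669 and 1295, and a minimum change of 1 gave 2, 7, 560 and 999. The second deposited table gave 8, 0, 1034 and 778, but OBP4 itself differed there by only 0.01 ± 0.09 (SE). Whether it holds the same hybridisations was not tested, so its values are not read as an effect of processing. The replicate numbers share only a number (correlations of deviations -0.197, 0.093 and -0.17), and the fit with the replicate number as a block gave 2, 7, 588 and 1114, with 9 of 18 member calls kept. Trend and robust eBayes called 2561 of all loci higher. The wider member set by family phrase, chosen after seeing the data, gave 10 higher. Called genes of the UDP-sugar list (5) were 2 in the second table and 2 with the block, and those of the hormone list (4) were 1 with the block and 2 with the photosynthesis covariate.

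Leaving out 1 array gave 2 to 4 UGT loci higher, 9 to 16 lower, 892 to 1309 of all loci higher and 1571 to 2048 lower, 3 to 4 UDP-sugar, 6 to 7 detoxification and 1 to 2 hormone genes. For all loci higher, the count was 963 without control replicate 1, 1050 without control replicate 2, 892 without control replicate 3, 968 without OBP4 replicate 2 and 1029 without OBP4 replicate 3. For all loci lower, it was 1705 without control replicate 1, 1571 without control replicate 3 and 1732 without OBP4 replicate 2. Fewer samples enter these fits.

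The second table turned the sign of UGT72B3 (0.76), UGT71C3 (0.25), UGT85A1 (0.09), UGT89B1 (-0.12), UGT74F1 (-0.057), UGT84A2 (3.62), UGT72E1 (0.0067), UGT84A1 (4.82), UGT84A4 (0.36), UGT76C1 (-0.33) and UGT76E2 (0.33), and the cause was not tested. No other alternative run turned the sign of a member that passed. Quantile normalization, median centring and cyclic loess each kept 17 of the 18 calls. Dim signals, wide in spread, limit what the 12 members under 9 can show, and compression of signals near the top of the range was not tested.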
